A study of Mus musculus with 6 samples.

Results

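The genes described here encode the cytotoxic granule of T cells in the mouse kidney: the granzymes Gzma, Gzmb, Gzmk and Gzmm, the pore-forming protein Prf1, and the granule genes Nkg7, Ctsw and Lyst. They are picked out by symbol, from a list drawn up with earlier results of these data known, and all 8 were found among the 32285 features of the series. The study sorted CD45+ αβ TCR+ T cells from kidneys of male WT C57BL/6J mice aged 7 to 8 weeks into CD4+, CD8+ and double negative (DN, neither CD4 nor CD8) cells and profiled each by droplet 3′ single-cell RNA-seq. The control group was normal mice, and the IR group had ischemia-reperfusion injury, with both renal pedicles clamped for 30 min. Each of the 6 groups is 1 library, so no difference within a subset or condition has a replicate check, and no test was run. The number of mice behind a library is not given in the sources used here.

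Cytotoxic lymphocytes store granzymes, which are serine proteases, in secretory lysosomes and release them with perforin toward a target cell. Perforin opens a path for the granzymes into the target, and granzyme B then cleaves caspases and other substrates after aspartate. In the kidney, T cells are known to shape ischemic acute kidney injury, and DN T cells are found in the normal kidney.

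After filtering, 47939 cells of 54039 barcodes were used. The median UMIs (unique molecules) per cell lay between 6626.5 and 8364.5 in the control libraries and between 1450.5 and 2355 in the IR libraries. The control files were written by Cell Ranger 5.0.1 and the IR files by Cell Ranger 6.0.1, so that condition, depth and software version cannot be told apart. T cell genes Cd3d, Cd3e, Cd3g, Trac, Trbc1 and Trbc2 were present in every library, at 6320 to 8590 CPM (UMIs scaled to the same total in every library) in sum. Cd4 was at 210 and 146 CPM in the CD4 libraries and at most 0.466 CPM elsewhere. Cd8b1 was at 1370 and 1100 CPM in the CD8 libraries and at most 6.27 CPM elsewhere. Of all barcodes, 997 occurred in more than 1 library of the same condition, 276 of them among the cells used.

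Levels are CPM of the summed UMIs of a library, with an exact 95% Poisson interval that covers counting error only. A gene was called different when the ratio was at least 2-fold and the higher library reached 10 CPM, and the share of all tested genes called in a contrast is given beside the count of the 8 genes called in it.

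Gzma encodes a trypsin-like protease and was most abundant in CD8 T cells in both conditions. Control libraries held it at 12.7 CPM in CD4, 187 CPM in CD8 and 75.7 CPM in DN T cells. IR libraries held it at 70.2 CPM in CD4, 580 CPM in CD8 and 141 CPM in DN T cells. Within each condition the order was CD8, DN, CD4, and the intervals of control DN (73.6 to 77.9) and IR CD4 (66.1 to 74.5) overlapped while all others were apart. Such intervals take each UMI as independent, while 13 cells held 88.4% of the control CD4 Gzma UMIs. They thus understate the error from sampling cells.

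Gzmb, the aspartate-specific granzyme, followed the same order. Its control levels were 14.6 CPM in CD4, 137 CPM in CD8 and 68.5 CPM in DN T cells. Its IR levels were 55.8 CPM in CD4, 213 CPM in CD8 and 91.2 CPM in DN T cells, and none of the 6 intervals overlapped. Gzma lies at chr13:113093825-113100981 on the minus strand and Gzmb at chr14:56258838-56262260 on the minus strand (GRCm38).

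Gzmk, a tryptase of the Gzma family located next to Gzma at chr13:113171608-113225908, was instead lowest in DN T cells. Control levels were 22.1 CPM in CD4, 176 CPM in CD8 and 2.86 CPM in DN T cells, and IR levels were 28.3 CPM, 114 CPM and 5.47 CPM in the same order of subsets. The DN levels rest on 174 UMIs in the control and 24 UMIs in the IR library. The annotated span of Gzmk overlaps Esm1 on the opposite strand, and whether counting used strand is not given in the sources used here.

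Gzmm, which cleaves after methionine and leucine, was a CD8 gene. It was at 33.9 CPM in control CD8 and 36.3 CPM in IR CD8 T cells, intervals 32.2 to 35.7 and 31.8 to 41.3, which overlapped. In CD4 T cells it was at 2.27 CPM in the control and 5.88 CPM in the IR library. In DN T cells it was at 1.93 CPM and 2.96 CPM, the latter from 13 UMIs with an interval of 1.58 to 5.07.

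Prf1, which forms the pore, had the same order of subsets as Gzma and Gzmb but was lower in every IR library than in the control library of the same subset. Control levels were 15.8 CPM in CD4, 129 CPM in CD8 and 57.7 CPM in DN T cells. IR levels were 9.82 CPM in CD4, 36 CPM in CD8 and 20.7 CPM in DN T cells. The intervals of IR DN (16.7 to 25.5) and control CD4 (14.7 to 16.9) overlapped, and the other neighbours in the order did not.

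Nkg7, a membrane protein of cytotoxic granules needed for their release, was high in all subsets. Control levels were 793 CPM in CD4, 1620 CPM in CD8 and 1160 CPM in DN T cells, and IR levels were 604 CPM, 1710 CPM and 1040 CPM. Ctsw, the cysteine protease cathepsin W of cytotoxic lymphocytes, had control levels of 362 CPM in CD4, 635 CPM in CD8 and 619 CPM in DN T cells. Its IR levels were 285 CPM in CD4, 442 CPM in CD8 and 567 CPM in DN T cells, so that DN T cells held the highest Ctsw level of the IR group. Ctsw overlaps Fibp on the opposite strand.

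Lyst, the lysosomal trafficking regulator that is mutated in beige mice, ran against the other genes. Its control levels were 995 CPM in CD4, 447 CPM in CD8 and 1550 CPM in DN T cells, and its IR levels were 348 CPM, 130 CPM and 684 CPM. DN T cells were highest and CD8 T cells lowest in both conditions. Lyst has 170948 bases of intron against 17459 bases of exon in the annotation.

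**Figure D1:**
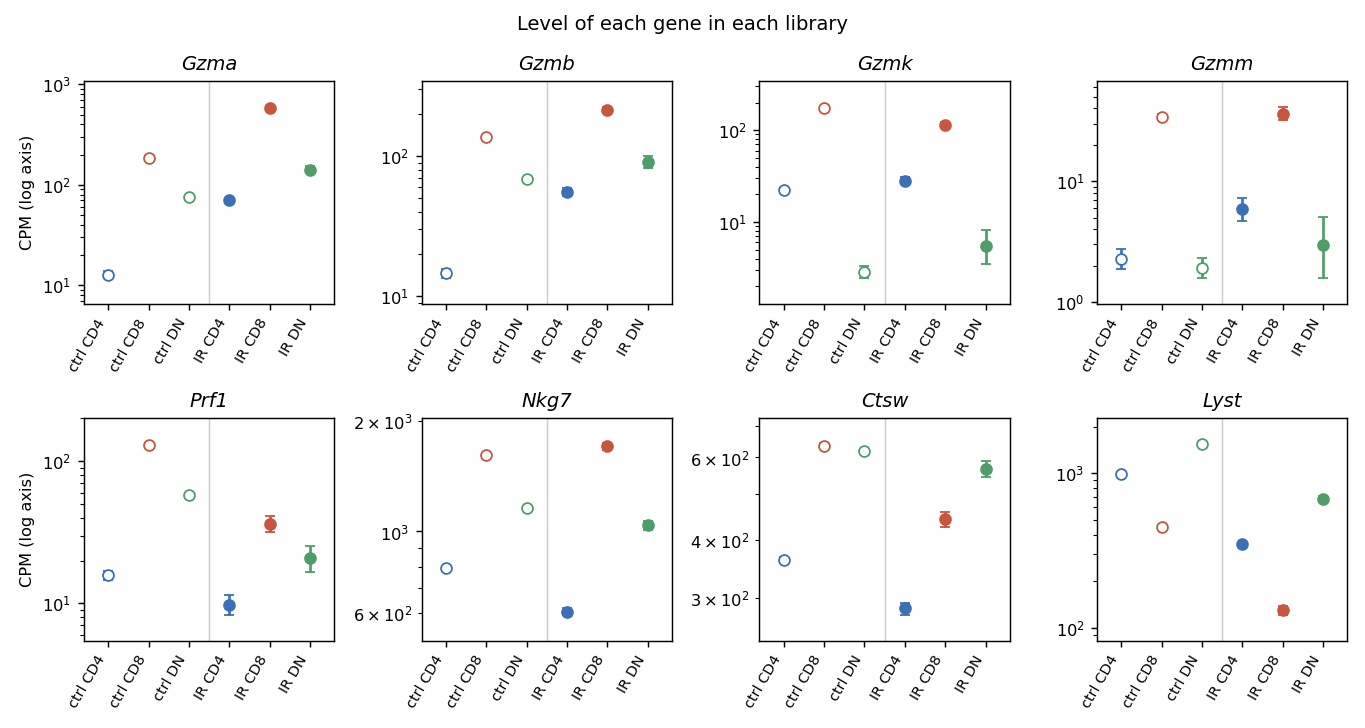
Level of each of the 8 genes in each library, in CPM on log axes that differ between panels. Open circles are control and filled circles IR libraries, coloured by subset, and bars are exact 95% Poisson intervals that cover counting error only. Gzma and Gzmb are highest in CD8 T cells of both conditions, Gzmk and Gzmm are near the bottom of the axis in DN T cells, and Lyst is lowest in CD8 T cells.

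Because Gzma and Gzmb shared their order of libraries while Gzmk and Prf1 did not, the 250 bases before the RefSeq start of these genes are shown (GRCm38.p6, 5′ to 3′ on the gene's strand). Capitals mark TGTGGT, a core of the Runx factors' motif, or TCACAC, a core of the T-box factors' motif, found on either strand; ACCACA and GTGTGA are the same letters read on the opposite strand. The matches do not overlap each other. Of 32851 promoters of that length, 14% hold the Runx letters and 12.3% the T-box letters.
Gzma (chr13:113100982-113101231, minus strand): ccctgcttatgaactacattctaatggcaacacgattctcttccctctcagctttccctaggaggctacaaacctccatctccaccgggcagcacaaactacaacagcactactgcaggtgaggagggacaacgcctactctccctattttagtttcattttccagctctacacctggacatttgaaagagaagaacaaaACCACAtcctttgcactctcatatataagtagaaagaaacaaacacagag
Gzmb (chr14:56262335-56262584, minus strand): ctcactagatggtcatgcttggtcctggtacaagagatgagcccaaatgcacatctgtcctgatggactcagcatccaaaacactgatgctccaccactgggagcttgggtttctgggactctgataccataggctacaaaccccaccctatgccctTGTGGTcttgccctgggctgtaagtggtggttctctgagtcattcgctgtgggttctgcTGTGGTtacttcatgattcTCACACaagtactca
Gzmk (chr13:113180966-113181215, minus strand): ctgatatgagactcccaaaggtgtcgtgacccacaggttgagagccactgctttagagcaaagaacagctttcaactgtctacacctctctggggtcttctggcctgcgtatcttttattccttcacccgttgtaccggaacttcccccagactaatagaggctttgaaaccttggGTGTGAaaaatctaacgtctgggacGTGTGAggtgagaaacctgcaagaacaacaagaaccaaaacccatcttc
Prf1 (chr10:61297586-61297835, plus strand): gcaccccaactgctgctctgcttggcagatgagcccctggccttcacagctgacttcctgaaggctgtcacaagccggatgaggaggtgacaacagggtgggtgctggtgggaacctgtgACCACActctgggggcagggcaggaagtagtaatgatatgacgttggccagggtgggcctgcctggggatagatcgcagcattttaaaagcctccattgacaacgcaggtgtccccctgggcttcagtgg
The Gzma window holds 1 Runx match and 0 T-box matches, the Gzmb window 2 and 1, the Gzmk window 0 and 2, and the Prf1 window 1 and 0. The Nkg7 window holds 1 and 1, the windows of the 2 RefSeq starts of Gzmm hold 1 and 0 and 0 and 1, and the Lyst window holds 0 and 0. Ctsw has no entry. These are matches of letters and say nothing about binding in these cells. The RefSeq start of Gzmk lies inside the wider annotated span given above.

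The comparison of CD8 with CD4 T cells within a condition asks how the granule genes divide between the classical subsets. In the control group 7 of 8 genes were called, against 4.36% of all genes tested. Gzma was 14.6-fold higher in CD8 T cells (log2 ratio 3.87, 95% interval 3.76 to 3.99), Gzmm 14.9-fold and Gzmb 9.4-fold (3.23). Prf1 was 8.19-fold, Gzmk 7.98-fold and Nkg7 2.04-fold higher in CD8 T cells, and Lyst was 2.23-fold lower. The Nkg7 call was lost (log2 ratio 0.92) with ribosomal protein, mitochondrial and Malat1 UMIs kept in the totals. Ctsw was 1.75-fold higher and not called.

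The same 7 genes were called in the IR group in the same directions, against 7.62% of all genes tested. The log2 ratios of CD8 over CD4 were 3.05 for Gzma, 2.63 for Gzmm, 2.00 for Gzmk, 1.94 for Gzmb, 1.87 for Prf1 and -1.43 for Lyst, and Nkg7 was 2.83-fold higher. For the 4 granzymes and Prf1 these ratios were smaller than in the control group, with intervals that did not overlap. Whether the ratios differ between conditions beyond the spread of replicates was not tested.

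DN T cells were set against CD4 T cells to place the unconventional subset. In the control group 4 of the 7 genes tested were called, against 2.75% of all genes. Gzma was 5.94-fold higher in DN T cells (log2 ratio 2.57), Gzmb 4.71-fold (2.23) and Prf1 3.65-fold (1.87), while Gzmk was 7.71-fold lower (-2.95, and -4.49 with cells thinned to 1000 UMIs). Nkg7 (0.55), Ctsw (0.77) and Lyst (0.64) were less than 2-fold apart, and Gzmm did not reach the minimum level.

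Between IR DN and CD4 T cells 3 of the 7 genes tested were called, against 7.3% of all genes. Prf1 (log2 ratio 1.08, interval 0.69 to 1.46) and Gzma (1.01, interval 0.86 to 1.15) lay close to the 2-fold line, and Gzmk was 5.17-fold lower in DN T cells. Ctsw (0.99) and Lyst (0.97) lay just inside the line. With totals scaled by the trimmed mean of M values, Gzmk was the sole gene left, and with ribosomal protein, mitochondrial and Malat1 UMIs kept in the totals the count was 5.

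Against CD8 T cells, control DN T cells had 5 of 8 genes called, with 6.58% of all genes tested called in that contrast. Gzmk was 61.5-fold lower in DN T cells (log2 ratio -5.94, interval -6.17 to -5.73) and Gzmm 17.6-fold lower (-4.14). With cells thinned to 1000 UMIs these ratios were -7.58 and -3.43, so the size of both folds depends on how depth is treated. Gzma (-1.30) and Prf1 (-1.17) were also lower, Gzmb had 0.501 of its CD8 level and just missed the line, which it passed under 6 of the alternatives, and Lyst was 3.47-fold higher. Ctsw was nearly level at -0.04.

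IR DN and CD8 T cells also differed at 5 of 8 genes, against 11.9% of all genes tested. Gzmk was 20.8-fold, Gzmm 12.3-fold, Gzma 4.1-fold and Gzmb 2.34-fold lower in DN T cells, and Lyst was 5.28-fold higher. The Gzmb call was lost with the removed features kept in the totals (-0.88) and as a mean over cells (-0.96). Prf1 was at -0.80 and not called.

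**Figure D2:**
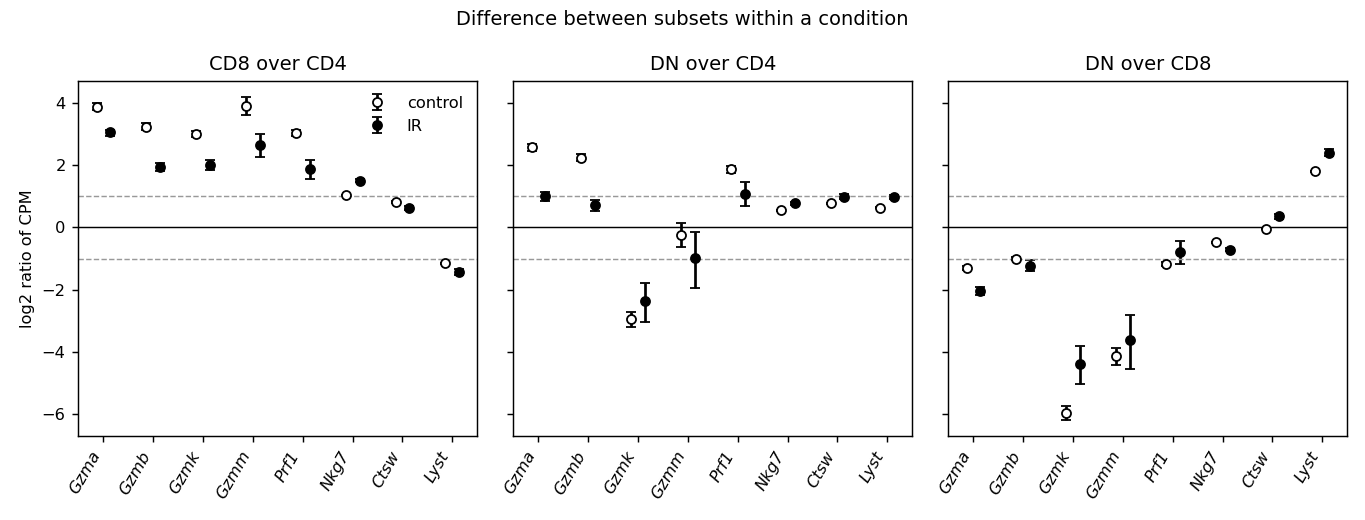
log2 ratio of CPM between subsets for each gene, with open circles for the control and filled circles for the IR libraries; bars are 95% intervals for counting error and dashed lines mark 2-fold. In the panel of DN over CD8 T cells Gzmk and Gzmm lie below -3 in both conditions while Lyst lies above 1.

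Of the NK markers Ncr1, Eomes, Klrb1c, Tyrobp, Klra8 and Klri2, 5 were highest in the DN libraries of both conditions. Eomes was the exception, at 60.2 and 28.9 CPM in the control and IR CD8 libraries and 4.11 and 2.74 CPM in the DN libraries. All 6 had UMIs in every library, and their summed level was 302 and 322 CPM in the DN libraries and 51.2 to 89.2 CPM in the CD4 and CD8 libraries. Control DN T cells with an Ncr1 UMI (267 of 8898 cells, a marker chosen after its values were seen) held 1681 of the 4602 Gzma UMIs of the library, at 810 CPM. The other 8631 cells were at 49.8 CPM of Gzma, 65.1 CPM of Gzmb and 55.7 CPM of Prf1. A cell without an Ncr1 UMI may still be of the NK type. In the IR DN library 21 cells with an Ncr1 UMI held 90 of the 620 Gzma UMIs, and the other 4021 cells were at 122 CPM. Markers of other unconventional T cells were also highest in DN T cells. The gamma delta T cell genes found summed to 213 and 133 CPM in the control and IR DN libraries and 11.2 to 63.8 CPM elsewhere. The invariant NKT genes Zbtb16 and Trav11 summed to 262 and 132 CPM in the DN, 206 and 79.5 CPM in the CD4 and at most 2.09 CPM in the CD8 libraries. The sort took αβ TCR-positive cells, a gate that should remove NK cells and gamma delta T cells. The part of these cells in the differences of the DN libraries, Gzma included, was not tested.

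The IR libraries were compared with the control libraries of the same subset to ask what accompanies ischemic injury. Cells of the 2 conditions fell into almost separate clusters: the cluster with most control CD8 T cells (4916) held 5 IR CD8 T cells, and the one with most IR CD8 T cells (3866) held 0 control CD8 T cells. Likewise the cluster with most control DN T cells (4140) held 2 IR DN T cells. These clusters were made without batch correction, which the study did apply. The separation therefore cannot be told apart from depth and software version. Markers of other cells also differed between conditions. Summed over 4 hemoglobin genes, erythroid transcripts were at 1.16 to 1.28 CPM in the control and 20.1 to 27.5 CPM in the IR libraries. Endothelial marker genes summed to 129, 99.7 and 45.5 CPM in the CD4, CD8 and DN control libraries and to 102, 80.2 and 46.5 CPM in the IR libraries, and thus moved with the subset more than with the condition. Kidney tubule and mast cell or basophil genes summed to at most 2.05 and 2.28 CPM. Their part in the differences was not tested. The median log2 ratio of all genes tested was not 0 in these contrasts but -0.26 in CD4, -0.38 in CD8 and -0.26 in DN T cells. Gzma was the gene with the largest positive ratio among the 8 in CD4 and CD8 T cells. Prf1 and Lyst had the most negative ratios in all 3 subsets, which for Lyst changed with the centring on intron length given below.

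In CD4 T cells 3 of the 7 genes tested were called, against 22.8% of all genes tested. Gzma was 5.51-fold higher in the IR library (log2 ratio 2.46, interval 2.32 to 2.61) and Gzmb 3.83-fold higher (1.94, interval 1.79 to 2.08). Lyst was lower at -1.52, and Prf1 was at -0.69 and not called. With the removed features kept in the totals Prf1 was at -1.04 and called. The Gzma levels come from 57 cells with 644 UMIs in the control library and 116 cells with 1087 UMIs in the IR library. Summed over Lyz2, S100a8, S100a9, Cst3, Csf1r and C1qa, myeloid transcripts were at 109 CPM in the control and 263 CPM in the IR library, none of the 6 at 0 in either. In CD8 T cells the same sum was 107 CPM without and 142 CPM with IR, and in DN T cells it was 104 CPM without and 155 CPM with IR. S100a8 was at 0 in both of these control libraries and S100a9 in control CD8. Without the cluster led by C1q genes, a setting chosen after seeing the data, Gzma was at 2.47 and Gzmb at 1.94 on the log2 scale.

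In CD8 T cells 3 of 8 genes were called, against 25.6% of all genes tested. Gzma was 3.11-fold higher (log2 ratio 1.64), Prf1 was 3.59-fold lower (-1.85, interval -2.04 to -1.66) and Lyst was 3.45-fold lower (-1.79). Gzmb (0.64), Gzmk (-0.63), Ctsw (-0.52), Gzmm (0.10) and Nkg7 (0.08) stayed within 2-fold. Gzmb was called higher when centred on the median of all genes (1.02), and Gzmk lower with the removed features kept (-1.06). A 2-fold difference was common among all genes in this contrast.

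In DN T cells 2 of the 6 genes tested were called, against 19.6% of all genes tested, and both were lower in the IR library. Prf1 was 2.78-fold lower (log2 ratio -1.48, interval -1.79 to -1.18) and Lyst 2.27-fold lower (-1.18). Gzma was at 0.90 and Gzmb at 0.41. Centred on the median of all genes, Gzma was called and Lyst was not. Gzmk and Gzmm did not reach the minimum level in DN T cells.

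The Lyst difference was smaller when set against genes of similar intron length. With log2 ratios centred within bins of intronic length, Lyst was at -0.37 in CD4, -0.95 in CD8 and -0.44 in DN T cells, under 2-fold in each. Prf1, with 4264 intronic bases, was at -0.92, -1.78 and -1.57 and Gzma at 2.34, 1.78 and 0.90 after the same centring. Nkg7 (-0.86) and Ctsw (-0.78) then lay below Lyst in CD4 T cells, and Nkg7 (-0.51) did in DN T cells. The methods name default settings, and whether reads in introns were counted is not stated. The part of such reads in the Lyst difference was not tested.

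**Figure D3:**
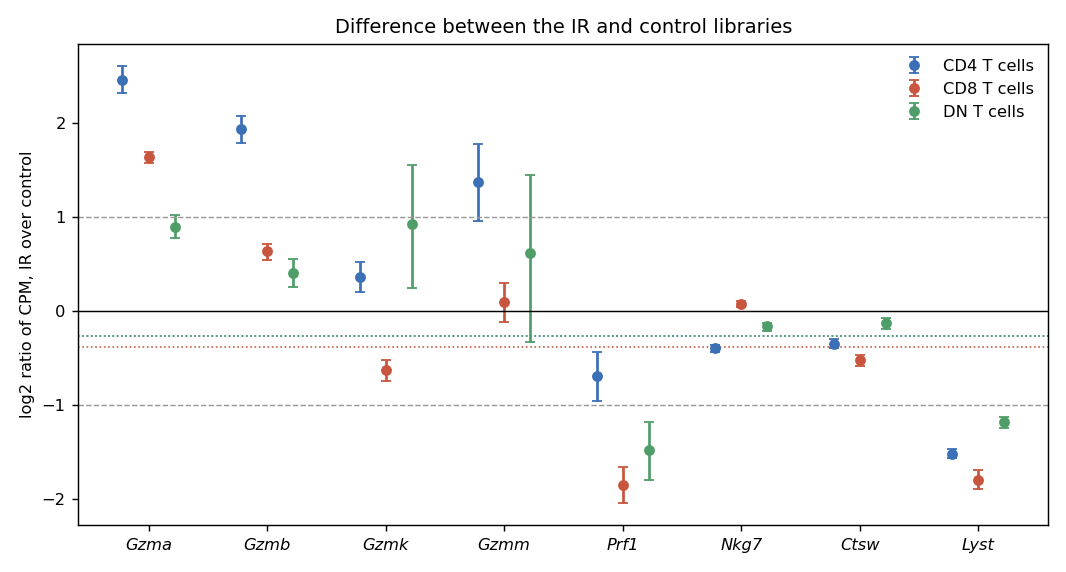
log2 ratio of CPM, IR over control, for each gene in CD4, CD8 and DN T cells; bars are 95% intervals for counting error, dashed lines mark 2-fold and dotted lines the median of all genes tested in a subset. Gzma lies above 0 and Prf1 and Lyst below 0 in all 3 subsets.

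Shares of cells with a UMI were compared after each cell was thinned to 1000 UMIs, which left out between 30 and 565 shallower cells of a library. Gzma was found in 4.59% of control CD8 (95% Clopper-Pearson interval 4.16 to 5.05) and 5.47% of IR CD8 T cells (4.91 to 6.06). In DN T cells the shares were 1.73% and 2.17%, and in CD4 T cells 0.153% and 0.892%. The 255 non-T barcodes with enough UMIs, whose median before thinning was 1578.5 UMIs over all 338, held Gzma in 0.392% (interval 0.00993 to 2.17). That value is 1 barcode, from the IR CD8 library, and its interval contains the CD4 and DN shares, so the non-T barcodes set no usable background for Gzma in these subsets. Without thinning the CD8 shares were 9.11% and 6.65%, and at 1000 UMIs of the retained features 4.57% and 9.68%, so no order of the conditions was read from them.

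Gzmk was found in 12.3% of control CD8 and 5.43% of IR CD8 T cells. The DN shares were 0.237% and 0.356%, beside 0.784% of non-T barcodes (interval 0.0951 to 2.8). No expression by DN T cells is read from shares this low. The Gzmk UMIs of non-T barcodes all lay in the CD8 libraries, and the non-T barcodes of the DN libraries held 0, so the part of free RNA in the DN levels and in the folds against them was not tested. Prf1 was found in 9.17% of control CD8, 4.56% of control DN and 1.26% of control CD4 T cells, and in 1.85%, 1.43% and 0.601% of the same subsets of the IR group. None of the 255 non-T barcodes held Prf1 or Gzmm, which allows a share of up to 1.18% at 3 counts and 1.44% by the Clopper-Pearson interval. The Prf1 shares of both CD4 libraries and the IR DN library lie within the latter, and before thinning 3 of the 338 non-T barcodes held Prf1.

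Gzmb was found in 7.25% of control CD8 and 6.41% of IR CD8 T cells although its CPM was higher in the IR library, so no order was read from these shares. Nkg7 was found in 64.1% of control CD8, 56.6% of control DN and 38.7% of control CD4 T cells, against 5.1% of non-T barcodes. Ctsw was found in 37.4%, 38.2% and 23.5%, and Lyst in 25.5%, 62% and 44.4%, of the same cells. The IR shares of CD8, DN and CD4 T cells were 46.7%, 43.3% and 23.4% for Nkg7, 19.5%, 30.1% and 14% for Ctsw, and 6.51%, 35% and 16.9% for Lyst. In IR CD8 T cells Lyst was thus found in about as many cells as Gzmb, and the interval of its share in non-T barcodes (4.31%, 2.17 to 7.59) contains that value.

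Most Gzma UMIs were held by few cells. In control CD8 T cells Gzma had 8501 UMIs in 848 cells, with up to 266 in 1 cell, and the 127 cells with at least 10 Gzma UMIs held 82% of them. In control DN T cells 82 cells with at least 10 UMIs held 84.3% of the 4602 Gzma UMIs, and in control CD4 T cells 13 cells held 88.4% of 644. The corresponding cells of the IR group were 34 in CD4, 128 in CD8 and 19 in DN T cells, with 79.3%, 77.2% and 67.6% of the UMIs.

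Gzmk had the opposite layout in CD8 T cells. Its 8022 UMIs in the control library were spread over 3495 cells, with at most 23 in 1 cell, and the 1% of cells with the most held 10.2% of them, against 77% for Gzma. Prf1 was as widely spread there, with 5893 UMIs in 3617 cells and 8.55% in the top 1% of cells. Nkg7, Ctsw and Lyst held between 3.63% and 17.6% of their UMIs in the top 1% of cells over the 6 libraries.

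**Figure D4:**
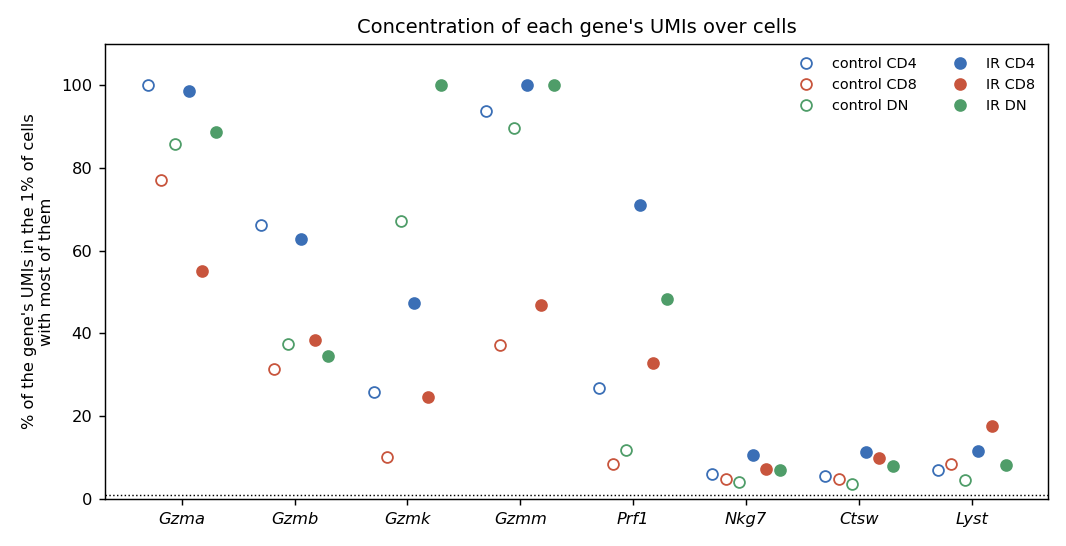
Share of a gene's UMIs held by the 1% of cells that hold most of them, for each gene and library without thinning; open circles are control and filled circles IR libraries, and the dotted line is an even spread. Gzma lies above 50% in every library, while Nkg7, Ctsw and Lyst lie below 20%; a gene found in fewer than 1% of cells is at 100% by construction.

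Co-detection was read at 1000 UMIs per cell, as the number of cells with both genes beside the product of their shares in the same library. Gzma and Gzmb were found together in 106 control CD8 T cells where the product gives 29.1 cells, a ratio of 3.64, and in 161 IR CD8 T cells against 21.5, a ratio of 7.48. In DN T cells they were together in 52 control cells against 5.3 and in 26 IR cells against 3.64. In CD4 T cells they were together in 2 control cells and in 23 IR cells against 1.86. The pair was above its product in each of the 6 libraries.

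Of Gzma-positive cells, 26.4% (95% interval 22.2 to 31) also held Gzmb in control CD8 and 47.9% (42.5 to 53.4) in IR CD8 T cells. Without thinning both of these values were higher and the gap between them was smaller. In DN T cells the values were 34% (26.5 to 42.1) and 32.9% (22.7 to 44.4), whose intervals overlapped. Gzma with Prf1 gave 59 control CD8 cells against 36.8 and 18 IR CD8 cells against 6.23.

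Gzmk overlapped with Gzma in control CD8 T cells little more often than the product. The pair was found in 63 cells against a product of 49.4, a ratio of 1.28. At this depth 793 of the 1076 cells with Gzmk had none of Gzma, Gzmb and Prf1. Without thinning it was 1189 of 3495 cells, so this count follows depth and no separation of the genes is read from it. In IR CD8 T cells Gzma and Gzmk were together in 66 cells against 18.3, a ratio of 3.62. Gzmk with Prf1 gave 133 control CD8 cells against 98.6 and 13 IR CD8 cells against 6.19. Thinning set the total UMIs of a cell, removed features included, and not the UMIs of the retained features. At 1000 UMIs of retained features, 8101 control CD8 and 2655 IR CD8 T cells remain.

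Over Gzma, Gzmb, Gzmk, Gzmm and Prf1, at least 2 were found in 5.76% of control CD8 (interval 5.28 to 6.26) and 4.62% of IR CD8 T cells (4.11 to 5.17). This order turned at 500 UMIs (2.04% and 2.31%) and at 1000 UMIs of the retained features (7.7% and 8.93%). The shares were 1.05% and 0.905% in DN T cells and 0.0874% and 0.511% in CD4 T cells. The DN order turned at 500 UMIs (0.438% and 0.52%) and at 1000 UMIs of the retained features (1.3% and 1.71%). The CD4 order turned without thinning (1.86% and 1.15%) and with 2 UMIs required (0.27% and 0.247%). Among cells with any of the 5 genes, those with 2 or more were 19.9% in control CD8 and 30.2% in IR CD8 T cells, and 11.6% in both DN libraries. Without thinning they were 49.9% and 34.3% in CD8 and 22.7% and 15.1% in DN T cells. No order of the conditions was read from these values. No cell held all 5 at this depth.

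**Figure D5:**
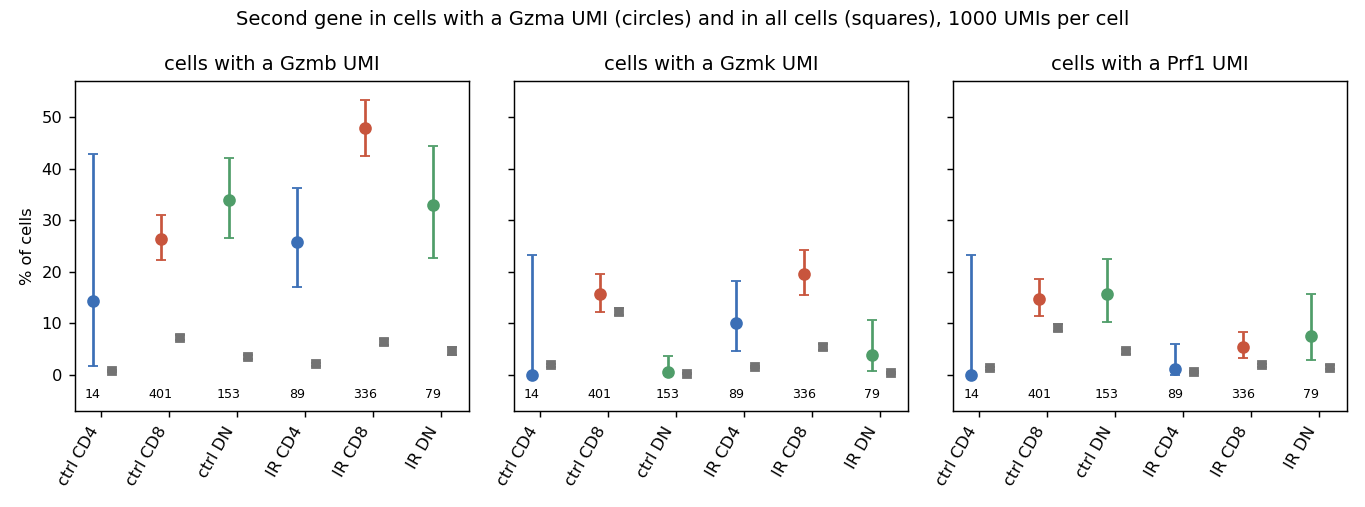
Percent of cells with a Gzmb, Gzmk or Prf1 UMI among cells with a Gzma UMI (circles, coloured by subset) and among all cells of the library (grey squares), at 1000 UMIs per cell, with 95% Clopper-Pearson intervals; the number of Gzma-positive cells stands under each circle. Gzmb lies higher in Gzma-positive cells in every library, and in IR CD8 T cells it reaches 47.9%.

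Cells were also split by a UMI of a marker, without thinning, to show where the granule UMIs sat. Among DN T cells, those with Klrb1c (the NK1.1 antigen) had 133 CPM of Gzma in the control and 316 CPM in the IR library, against 26.4 CPM and 95.1 CPM in those without. Fcer1g, a signalling adaptor of innate-like lymphocytes, split all DN T cells in another way, with 141 and 550 CPM of Gzma in cells with it and 52.4 and 65.7 CPM in cells without. Gzmb was at 139 and 201 CPM with Fcer1g and at 43.5 and 70.8 CPM without. Lyst was at 1300 and 412 CPM with Fcer1g and 1640 and 734 CPM without, but at 1710 and 717 CPM with Klrb1c and 1420 and 675 CPM without.

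DN T cells with a UMI of Pdcd1, the PD-1 receptor, held less Gzma in both conditions. They were at 42.6 CPM in the control, and 1 UMI was found in the 92 such cells of the IR library, against 79.3 and 144 CPM in the rest. Cells with Zbtb16, the PLZF factor of invariant NKT and related cells, a marker chosen after its values were seen, were at 41.6 and 22.4 CPM of Gzma against 132 and 158 CPM in DN T cells without it.

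Cells with Ccr7, the lymph node homing receptor of naive and central memory cells, held less Gzma, Gzmb and Gzmk in the CD8 libraries. In CD8 T cells Gzma was at 18.8 CPM with Ccr7 and 230 CPM without in the control, and at 30.3 CPM and 895 CPM in the IR library. Gzmk was at 37 CPM with Ccr7 and 212 CPM without in the control, and at 15.8 CPM and 170 CPM in the IR library. Gzmm differed less in the control, at 27.2 CPM with Ccr7 and 35.6 CPM without, but was at 11.9 CPM and 50.3 CPM in the IR library. In control CD4 T cells Gzmb was at 2.04 CPM with Ccr7 and 15.6 CPM without, and Prf1 at 19.2 and 15.5 CPM, while all 53 Gzma UMIs of cells with Ccr7 lay in 1 cell. In IR CD4 T cells Gzma was at 10.7 CPM with Ccr7, from 4 cells, and 84.4 CPM without, from 112 cells.

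In CD4 T cells, the Gzmb level and not the Gzma level was higher in cells with Foxp3, the regulatory T cell factor. Gzmb was at 55.1 CPM in the 342 control cells with Foxp3 and at 12.8 CPM in the others, and at 251 CPM in the 309 IR cells with Foxp3 and 49.1 CPM in the others. Gzma was at 2.33 CPM from 5 UMIs in control cells with Foxp3 and had 0 UMIs in those of the IR library. The Gzmb UMIs lay in 36 control and 20 IR cells with Foxp3, a minority of these cells. Foxp3 cells held 118 of 736 control and 128 of 863 IR Gzmb UMIs, so that most Gzmb UMIs of the CD4 libraries lay in cells without a Foxp3 UMI.

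CD4 T cells of the control group with Mki67, a proliferation marker, were at 9.88 CPM of Gzma and 22 CPM of Gzmb, and those without at 13 and 13.8 CPM. In control CD8 T cells Mki67 went with more Gzma (323 against 172 CPM) and Gzmb (216 against 128 CPM). Control DN T cells with Mki67 were at 130 CPM of Gzma against 72.4 CPM and at 33.3 CPM of Prf1 against 59.2 CPM. The IR libraries held 88, 28 and 7 such cells in CD4, CD8 and DN T cells.

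Among the other granzymes, Gzmc alone had UMIs. Gzmd, Gzme, Gzmf, Gzmg and Gzmn had 0 UMIs in all 6 libraries. Gzmc, their neighbour in the Gzmb cluster, was at 0.752 CPM in CD4, 0.395 CPM in CD8 and 2.63 CPM in DN control libraries and at 8.34, 4.35 and 42.9 CPM in the IR libraries of the same order. It was 16.3-fold higher in IR DN T cells (log2 ratio 4.03, interval 3.71 to 4.34), where its 188 UMIs lay in 59 cells and 4 cells held 45.7% of them. In the control DN library its 160 UMIs lay in 77 cells. Gzmc has close sequence relatives in the same cluster, and how reads shared between them were assigned is not given in the sources used here.

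Among 8 genes that activate or restrain granzymes, 6 were tested in every contrast. Between IR and control libraries, 0 were higher and 2 lower in CD4 and in CD8, and 1 higher and 2 lower in DN T cells. Of all genes tested, 7.72%, 7.93% and 8.31% were higher and 15.1%, 17.7% and 11.3% lower in CD4, CD8 and DN T cells. In the IR group Ctsc, the peptidase that activates granzymes, was lower in all 3 subsets (log2 ratios -1.10 in CD4, -1.01 in CD8 and -1.04 in DN T cells). These values lay just past the 2-fold line. Cst7, an inhibitor of that peptidase, was lower in CD4 (-1.06) and DN T cells (-1.31). Serpinb9, the intracellular inhibitor of granzyme B, was higher in DN T cells (1.21), and Serpinb6a, another serpin, was lower in CD8 T cells (-1.26). The medians of the list were -0.28, -0.70 and -0.45 beside -0.26, -0.38 and -0.26 over all genes. Between control subsets Cst7 was called in 2 contrasts, at 2.08 in CD8 over CD4 and at -1.57 in DN over CD8 T cells.

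Of 28 genes of granule formation and release, Lyst included, 26 were tested in each contrast. Between IR and control libraries, 1 was higher and 4 lower in CD4, 0 higher and 5 lower in CD8, and 1 higher and 2 lower in DN T cells, with medians of -0.42, -0.59 and -0.44 beside -0.26, -0.38 and -0.26 over all genes. Of all genes tested, 15.1%, 17.7% and 11.3% were lower in these contrasts, near the shares of the list, and 7.72%, 7.93% and 8.31% were higher. Sytl2, a Rab27 effector on lytic granules, was lower in all 3 subsets (-1.45, -2.09 and -1.24), and its paralog Sytl3 was higher in CD4 (1.16) and DN T cells (1.69). In the control group Lyst was the sole list member called between any subsets. In the IR group 3 of 26 were lower in CD8 than in CD4 T cells, beside 3.73% of all genes. There 5 were higher in DN than in CD8 T cells, beside 7.74% of all genes, and 0 were called between DN and CD4 T cells.

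Among the 4 ligands that kill through receptors, Tnfsf10 (TRAIL) was lower in all 3 IR libraries (-1.89 in CD4, -1.99 in CD8 and -1.41 in DN T cells). Fasl (-1.78) and Tnf (-1.27) were lower in CD8 T cells, so that all 3 ligands tested there were lower, beside 17.7% of all genes. In CD4 and in DN T cells 1 of 4 was higher and 1 lower, beside 7.72% higher and 15.1% lower of all genes in CD4 and 8.31% and 11.3% in DN T cells: besides the lower Tnfsf10, Lta, lymphotoxin alpha, was higher in CD4 (1.18) and DN T cells (1.53). In the IR group Fasl was higher in DN than in CD8 T cells (1.57).

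Among 13 regulators of the cytotoxic program, Zfp683 (Hobit, a factor of tissue-resident lymphocytes) and Klf2, a factor of recirculating cells, moved most with IR. In CD4 and in DN T cells 1 of 12 tested was higher and 2 lower. In CD8 T cells 1 of 13 was higher and 4 lower. Of all genes, 7.72%, 7.93% and 8.31% were higher and 15.1%, 17.7% and 11.3% lower in CD4, CD8 and DN T cells. Zfp683 was at -2.68, -3.90 and -2.27, and Klf2 at 2.29, 2.31 and 1.55, in CD4, CD8 and DN T cells. Tbx21 (T-bet) was lower in all 3 (-1.71, -1.80 and -1.31), and Eomes was lower in CD8 T cells (-1.06). Eomes was the gene of this list that separated control CD8 from CD4 T cells most (5.93).

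Of 10 effector surface and chemokine genes, 6 of 9 tested were higher in control CD8 than CD4 T cells, beside 1.75% of all genes, with a median log2 ratio of 1.90 beside 0.03 over all genes, led by Ccl3 (4.42) and Ccl4 (4.30). Between conditions, Ccl5 was higher with IR in CD4 (1220 to 3430 CPM) and DN T cells (1660 to 5060 CPM), and Klrd1, which encodes CD94, in CD4 (1.15) and CD8 T cells (1.44). Cd160 was lower in CD8 (-1.42) and Klrg1 in DN T cells (-1.20).

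The genes most like each granzyme and Prf1 over the 6 libraries were ranked by Pearson's correlation of log2(CPM + 1) among 5017 or 5018 genes at 50 CPM or more in a library. Gzmb was the gene most like Gzma and Gzma the one most like Gzmb (r = 0.987 over 6 libraries). Lcn4 (0.981) and Pkp4 (0.974) came next for Gzma. Cmah (0.981), Fam78a (0.978) and Saraf (0.975) ranked first for Gzmk, Cd8b1 (0.986), Cd69 (0.982) and Pa2g4 (0.971) for Gzmm, and Nop14 (0.977), Sinhcaf (0.977) and Ncl (0.969) for Prf1. With 6 points that share depth and software version within a condition, many genes reach such values, and they are a description. By Spearman's rho, 2 to 5 genes tied at the highest value for each, and among the genes named Pa2g4 was as low as 0.771.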

How the data were processed

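T cells sorted from mouse kidneys were profiled in 6 droplet 3′ libraries, 1 per group. The authors deposited raw UMI counts per gene and barcode, made with Cell Ranger against mm10. Per the file headers the version was 5.0.1 for the control and 6.0.1 for the IR libraries, while the labels give 6.0.1. The methods name default settings and do not state whether intronic reads were counted.

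Barcodes with at least 500 features and at most 20% mitochondrial UMIs were kept, the top 5% by UMIs of each library were removed as likely doublets without a doublet caller, and 2 of 23 Leiden clusters (scanpy 1.11.5) with a Cd3 UMI in under 50% of cells were left out as non-T (338 barcodes, of which 294 occurred in another library of the same condition). Totals leave out 104 features, which are Malat1 and the mitochondrial and ribosomal protein genes. Counts were summed per library, which held 7787822 to 89497612 UMIs, and divided to CPM.

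With 1 library per group no test was run, and cells were not used as replicates. Poisson, Clopper-Pearson and ratio intervals at 95% cover counting error only. A call needed 2-fold and 10 CPM in the higher library, and ratios against a library without UMIs used 3 counts as its floor. Of 32285 features, 32235 matched GENCODE M21 for gene positions, and promoters came from RefSeq. The scripts were checked on simulated data.

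The genes named were the 8 granule genes, list members at 10 CPM or more with the 2 largest absolute log2 ratios in a contrast, list genes needed as background, and the 3 genes most like each granzyme and Prf1. The genes and lists were chosen with earlier results of these data known. Fibp, Esm1, Ncr1 and Zbtb16 were named after their values or positions were seen. 1 marker list is not reported here.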

Additional observations from a re-analysis of the deposited data

Results flagged for a closer look

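Gzmk moved in opposite directions between subsets in the comparison of IR with control libraries. Its log2 ratio was 0.36 in CD4 (95% interval for counting error 0.20 to 0.52), -0.63 in CD8 (-0.74 to -0.52) and 0.93 in DN T cells (0.25 to 1.56). None of the 3 was called, the DN value rests on 24 IR UMIs, and with 1 library per group the difference between subsets was not tested. Centred within bins of intronic length, the CD8 value was 0.04 and the CD4 value reached 2-fold and was called. With the removed features kept in the totals, the CD8 value was -1.06 and called and the CD4 value was level, and with cells thinned to 1000 UMIs the DN value was 2.24. The directions and calls thus depend on these choices.

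Nkg7 was lower in the IR library in CD4 (log2 ratio -0.39) and DN T cells (-0.16) and slightly higher in CD8 T cells (0.08). None was called, and the difference between subsets was not tested. The CD8 value was -0.35 with the removed features kept in the totals, -0.07 as a mean over cells and -0.12 centred on intronic length, and the DN value was 0.10 centred on the median of all genes.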

How the results depend on the processing

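No called ratio of the 8 granule genes changed direction under the alternatives run, and ratios of other genes were not recomputed. Of 240 recomputed shares of cells with a UMI of 1 gene, 171 moved beyond their interval. Of 120 recomputed ratios of a pair's co-detection to its product, 15 did so. Of 123 recomputed counts of genes called in a contrast, 116 stayed within 1.5 times the count in the report. At 3-fold, 3 genes were called between control DN and CD8, 1 between IR DN and CD4 and 0 between IR and control DN T cells. Between IR DN and CD4 T cells, 5 were called with the removed features kept in the totals, 1 with TMM scaling (edgeR 4.0.16) and 1 at a minimum of 50 CPM. Centred within 20 bins of intronic length, 1 gene was called between IR and control DN T cells. Keeping the removed features moved the median log2 ratio of all genes, IR over control, to -0.633 in CD4, -0.811 in CD8 and -0.444 in DN T cells. Gzma, IR over control, ranged from 2.11 to 2.94 in CD4, 1.21 to 2.01 in CD8 and 0.61 to 1.17 in DN T cells, where it was past 2-fold with the top 5% of barcodes kept, with no cell filters and centred on the median of all genes. The Prf1 values lay between -2.27 and -1.47 (CD8) and between -1.66 and -1.21 (DN). Leaving out the cluster led by myeloid genes, chosen after seeing the data, left every count of calls within 1.5 times.

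The share of cells with 2 or more of the 5 genes followed depth. In control CD4, CD8 and DN and IR CD4, CD8 and DN T cells it was 1.86, 32.4, 7.99, 1.15, 7.11 and 1.53% without thinning, and 0.27, 12.8, 2.88, 0.247, 2.54 and 0.371% when 2 UMIs were required. At 500 UMIs it was 2.04% in control CD8, 0.438% in control DN, and 0.119, 0.52 and 2.31% in IR CD4, DN and CD8 T cells, so that IR CD8 was no longer below control CD8. At 1000 UMIs of retained features it was 7.7, 1.3, 0.752, 8.93 and 1.71% in control CD8 and DN and IR CD4, CD8 and DN T cells, again with IR CD8 above control CD8. Libraries could not be paired by replicate number, because the groups share fewer than 2 of these numbers. A fit over all 6 libraries with subset and condition as terms, which would pair libraries by subset, could have been made and was not run. With Spearman's correlation, 4 of the 5 lists of most similar genes moved.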

Other observations

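CD8 T cells were also split by Eomes, a marker chosen after seeing the data. Control CD8 T cells with a UMI of this T-box factor were at 252 CPM of Gzmk against 153 CPM in those without, and at 146 CPM of Gzma against 199 CPM. Gzmm was at 61.6 CPM with Eomes and 25.5 CPM without. In the IR library the 164 cells with Eomes were at 323 CPM of Gzmk against 107 CPM and at 857 CPM of Gzma against 571 CPM, so that Gzma did not go the way it did in the control.

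In CD4 T cells, those with Zbtb16 were at 0.803 CPM of Gzma in the control and 0.647 CPM in the IR library, against 19.7 and 78 CPM in those without. The same control cells were at 1580 CPM of Lyst against 654 CPM and at 998 CPM of Nkg7 against 673 CPM.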
